A study of Homo sapiens with 6 samples.

Results

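The 9 genes described here encode the proteins that mark and license replication origins, namely the 6 subunits of the origin recognition complex (ORC1 to ORC6), the loading factors CDC6 and CDT1, and geminin (GMNN), the inhibitor of CDT1. They were taken by symbol from the GENCODE v44 annotation of GRCh37 and matched by Ensembl gene identifier to the deposited table of 57773 genes, in which all 9 were found. All 9 also passed the filter for testing, a library mean of 0.5 RPKM or more, which 15451 genes met. RPKM is the number of reads divided by the length of the gene model and by the size of the library. Levels can thus be compared between genes as far as the model length matches the transcripts expressed.

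The cells were H460, a human non-small-cell lung cancer line, and they were transfected for 48 hours with siRNA at 50 nM. In 3 libraries (siNT) the siRNA was ON-TARGETplus Non-targeting siRNA #1. In the other 3 (siHKlincR1) it was siHKlincR1_2, which targets HKlincR1 (AC093323.3, ENSG00000170846). The paper treats HKlincR1 as a long intergenic non-coding RNA, while GENCODE v44 lists the gene as protein-coding. All 6 libraries carry the transfection with Lipofectamine RNAiMAX, and they are labelled as biological replicates numbered 1 to 3 in each group. The question was which genes change when HKlincR1 is depleted, and the answer here is limited to a single cell line, a single targeting siRNA and a single time point.

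Origin licensing takes place from late mitosis through G1. ORC binds DNA at future origins, CDC6 joins it, and CDT1 brings the MCM helicase, which is loaded as an inactive double hexamer around the DNA. Loading again within the same cycle is prevented after S phase has begun, because CDT1 is degraded and bound by geminin and because ORC1 and CDC6 are modified or removed. The mRNAs of ORC1, CDC6, CDT1 and GMNN vary with the cell cycle and are textbook targets of E2F transcription factors, whereas ORC2 to ORC5 form the core of the complex and are made throughout the cycle. Accordingly ORC1, CDC6, CDT1 and GMNN are called the regulated genes below, and ORC2, ORC3, ORC4 and ORC5 the constitutive genes, with ORC6 kept apart from both.

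Because the siRNA itself could pair with other transcripts, its strands are shown first, with the seed of the guide strand (bases 2 to 8) in capitals.

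sense strand of siHKlincR1_2: gaaguauacucgugugcuu

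guide strand of siHKlincR1_2: aAGCACACgaguauacuuc

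The 7 bases complementary to this seed were looked for in the spliced 3′ UTR of each gene's canonical transcript (GENCODE v44 on GRCh37). ORC2 held 1 such site and the other 8 genes held 0, while it was present in 1513 of 10765 tested genes whose 3′ UTR had 30 nt or more (14.1%). ORC1 and GMNN each held 1 match outside the 3′ UTR. The ORC2 site lies on the minus strand within the window chr2:201775744-201775772, in the 3′ UTR. This window is shown with the match in capitals.

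ORC2 3′ UTR: tggaatgaacaGTGTGCTcagggactatt

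The promoters of the 9 genes, 250 bases before to 50 bases after each start site, were available from RefSeq (GRCh38.p14), with 2 start sites each for GMNN and ORC4. They were searched on both strands for E2F words, meaning TTTCCCGC, TTTCGCGC, TTTGCCGC, TTTGGCGC or TTCCCGCC, of which the first and the last can overlap. Such a word occurred in 5.58% of 35116 promoters. It occurred in CDC6, CDT1 and GMNN among the regulated genes and in ORC3 among the constitutive genes. The words are a feature that the expression values did not use, and they did not divide the regulated from the constitutive genes. The windows are shown with the word in capitals as it reads on the plus strand.

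CDC6, chr17:40287875-40287904: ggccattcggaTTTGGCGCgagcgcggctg

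CDT1, chr16:88803743-88803772: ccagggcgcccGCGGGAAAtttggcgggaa

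CDT1, chr16:88803754-88803783: gcgggaaatttGGCGGGAAccgcgcccgcc

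GMNN, chr6:24775322-24775351: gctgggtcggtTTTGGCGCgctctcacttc

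ORC3, chr6:87590112-87590141: cgcgagggcgcGCGGGAAAtcccgagtgca

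No E2F word was found in the windows of ORC1, ORC2, ORC4, ORC5 and ORC6, and the GMNN word lay at 1 of its 2 starts. The cell-cycle homology region words TTTGAA and TTCGAA, found in 16.4% of all promoters, occurred in none of the 9 genes. A match is a string of letters and not a binding site, and factor binding was not measured.

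The targeted transcript was lower in every knockdown library. HKlincR1 was at 3.62, 3.47 and 3.83 RPKM in siNT libraries 1 to 3 and at 0.563, 0.628 and 0.390 RPKM in siHKlincR1 libraries 1 to 3. Its log2 fold change was -2.59 (standard error 0.17), which passed the test (limma with Benjamini-Hochberg adjustment, adjusted p = 0.00245). The lowest HKlincR1 level of all 6 libraries was in siHKlincR1 library 3. It held 27 reads, against 37 and 42 in siHKlincR1 libraries 1 and 2, so the order of these 3 rests on few reads.

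The libraries held 24980280 to 30521000 reads, of which 89.9% to 91.1% lay on listed genes. Each of the 9 genes had between 449 and 2476 reads in every library. The keratins KRT8, KRT18 and KRT19, which mark epithelial cells, were at 28.1 to 88.5 RPKM, whereas the epithelial adhesion genes EPCAM and CDH1 reached no more than 0.110 and 0.00543 RPKM. Of 9 markers of blood, endothelium and fibroblasts 8 were matched, and CD3E, CD68, VWF, PTPRC, COL1A2 and DCN averaged less than 0.1 RPKM in both groups. COL1A1 was at 1.10 RPKM on average in siNT and 0.580 RPKM in siHKlincR1, and LUM at 0.358 and 0.209 RPKM. The adjusted p of COL1A1 was 0.196 (limma, Benjamini-Hochberg), and 0.00666 in a fit on reads (limma's voom) with a term for the replicate number, in which it was called lower. KRT19 was highest in the libraries numbered 3 of both groups, at 53.0 and 57.1 RPKM. The part of these differences in the results below was not tested.

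The genes differed in abundance before any comparison of groups. In siNT libraries the order of mean levels was CDC6 (25.8 ± 2.33 RPKM, SD, n = 3), CDT1 (18.9 ± 0.244), GMNN (12.7 ± 2.59), ORC6 (12.4 ± 1.01), ORC1 (12.2 ± 2.08), ORC5 (11.01 ± 0.406), ORC2 (10.2 ± 0.366), ORC3 (7.22 ± 0.340) and ORC4 (2.88 ± 0.0688). The library values of GMNN, ORC6, ORC1 and ORC5 overlapped from each gene to the next in this order, so neighbours among these 4 could not be ranked. All other neighbours were separated in all 3 libraries. CDC6 lay above 87.3% of the tested genes and ORC4 above 36.2%. The subunits of a single complex thus ranged from 2.88 RPKM for ORC4 to 12.4 RPKM for ORC6. This order depends on the gene models, of which that of ORC4 was the longest, at 9018 nt against 3633 nt for ORC3. In siNT library 1 ORC4 had 703 reads and ORC3 719. Whether the model lengths match the transcripts expressed was not tested.

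**Figure D1:**
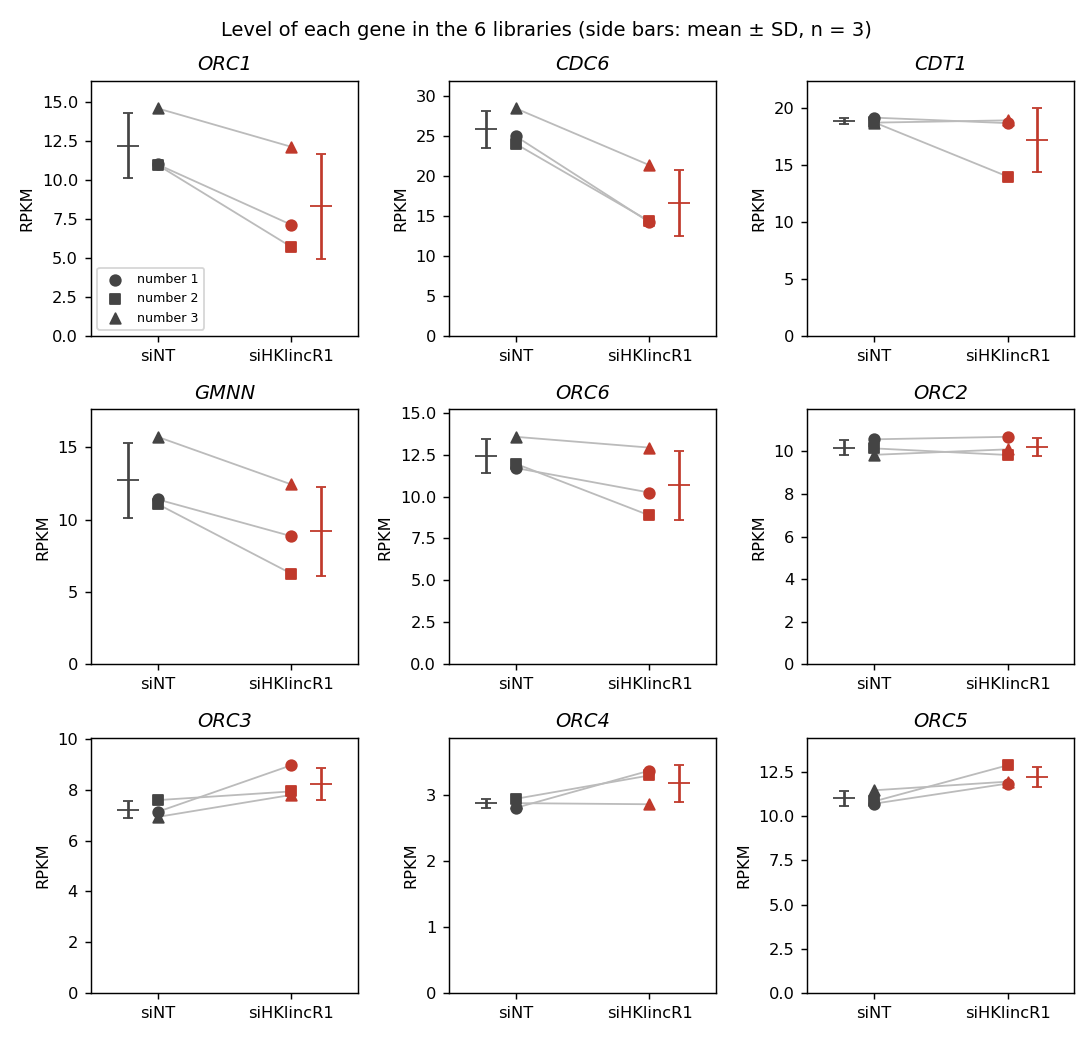
Level in RPKM (linear axis from 0) of each of the 9 genes in 3 siNT libraries (grey) and 3 siHKlincR1 libraries (red). Marker shape gives the replicate number, grey lines join libraries with the same number, and side bars give the mean ± SD; CDC6 is the only regulated gene whose groups do not overlap, and siHKlincR1 library 3 (triangle) is the red point nearest to the siNT points for ORC1, CDC6 and GMNN.

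After depletion of HKlincR1 the regulated and the constitutive genes lay on opposite sides of 0. All 4 regulated genes had a negative log2 fold change, with a median of -0.55, and all 4 constitutive genes a positive one, with a median of 0.14. ORC2 was among these at 0.0028 (standard error 0.07) and turned negative under 4 of 17 alternatives. Over all tested genes the median was 0.00 and 49.8% were negative. None of the 9 passed both thresholds of the test (limma, Benjamini-Hochberg adjusted p below 0.05, fold change over 1.5), where 55 genes, or 0.356% of those tested, were called lower and 1 higher. At an unadjusted limma p under 0.05 there were 1420 lower and 1088 higher genes, and CDC6 was the only one of the 9 among them. With the replicate number as a block (a term for each number in the fit), CDC6 alone of the 9 was called, and 125 genes (0.809%) were called lower and 79 higher. On whole reads recovered from the RPKM, limma's voom called 0 of the 9 without the block, where 87 genes (0.563%) were called lower and 2 higher. With the block voom called CDC6 and ORC1, where 264 genes (1.71%) were called lower and 160 higher, and GMNN also had an adjusted p of 0.0196 (Benjamini-Hochberg) but a fold change under 1.5.

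CDC6 is the ATPase that joins ORC on DNA and recruits CDT1 with the helicase. It lies at chr17:38444131-38460909 on the plus strand (ENSG00000094804, GRCh37). Its level was 24.9, 24.0 and 28.4 RPKM in siNT libraries 1 to 3 (2341, 2476 and 2401 reads). In siHKlincR1 libraries 1 to 3 the level was 14.2, 14.3 and 21.3 RPKM (1367, 1401 and 2158 reads). All siHKlincR1 libraries were below all siNT libraries (p = 0.10 in a two-sided exact permutation test, which cannot go lower with 3 against 3), a separation in this direction that 11.9% of the tested genes showed. Libraries 1 and 2 of the knockdown were nearly equal, and library 3 lay between them and the lowest siNT library.

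The mean level of CDC6 was 25.8 ± 2.33 RPKM with siNT and 16.6 ± 4.08 RPKM with siHKlincR1 (SD, n = 3), which is 64.4% of the control. The log2 fold change was -0.65 (standard error 0.16, 95% confidence interval -1.04 to -0.27). It did not pass the test without the block (limma, Benjamini-Hochberg adjusted p = 0.174). In the fit with replicate numbers as blocks CDC6 fell by 0.65 on the log2 scale (standard error 0.09, limma, Benjamini-Hochberg adjusted p = 0.0436). Within numbers 1, 2 and 3 the log2 differences were -0.81, -0.74 and -0.41, so that the libraries numbered 3 differed least. CDC6 was among the genes that the study itself picked from these libraries, so its direction here is not independent evidence. The paper also reports lower CDC6 by qRT-PCR after the knockdown, in H460 and in other non-small-cell lung cancer lines.

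ORC1 is the ATPase subunit that completes ORC in G1 and is degraded in S phase. It lies at chr1:52838501-52870095 on the minus strand (ENSG00000085840). In siNT libraries 1 to 3 it was at 10.99, 10.96 and 14.58 RPKM, and in siHKlincR1 libraries 1 to 3 at 7.12, 5.71 and 12.1 RPKM. The groups overlapped because of siHKlincR1 library 3, which was above siNT libraries 1 and 2, and within each number the knockdown library was the lower. The log2 fold change was -0.60 (standard error 0.27, interval -1.23 to 0.02), and its limma adjusted p (Benjamini-Hochberg) was 0.318 without the block and 0.0739 with it. The log2 differences within numbers were -0.62, -0.93 and -0.26.

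GMNN encodes geminin, which binds CDT1 in S and G2 phase and is destroyed in mitosis. It lies at chr6:24775159-24786327 on the plus strand (ENSG00000112312). Its levels were 11.4, 11.1 and 15.7 RPKM in siNT libraries 1 to 3 and 8.86, 6.27 and 12.4 RPKM in siHKlincR1 libraries 1 to 3. As for ORC1, the libraries numbered 3 were the highest of their group, and siHKlincR1 library 3 was above siNT libraries 1 and 2. The log2 fold change was -0.50 (standard error 0.25, interval -1.09 to 0.09), with a limma adjusted p (Benjamini-Hochberg) of 0.355 without the block and 0.0742 with it. Within numbers the log2 differences were -0.36, -0.81 and -0.34.

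CDT1 encodes the protein that brings the helicase to ORC and CDC6 and that geminin inhibits. It lies at chr16:88870197-88875666 on the plus strand (ENSG00000167513). Its 3 siNT libraries were nearly equal, at 19.2, 18.8 and 18.7 RPKM, while siHKlincR1 libraries 1 to 3 were at 18.7, 14.0 and 18.9 RPKM. Library 2 was the only knockdown library outside the narrow siNT range by more than 1 RPKM. The log2 fold change was -0.15 (standard error 0.12, interval -0.43 to 0.14, limma, Benjamini-Hochberg adjusted p = 0.552). Within numbers it was -0.04, -0.42 and 0.02 on the log2 scale, and without siHKlincR1 library 2 the log2 fold change was -0.01, so the negative value of CDT1 came from that library.

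CDT1, whose promoter window held E2F words like those of CDC6 and GMNN, was thus closest to 0 among the regulated genes. The RPKM ratio of CDT1 to its inhibitor GMNN, a pair chosen after the values were seen, was 1.68, 1.69 and 1.19 in siNT libraries 1 to 3 and 2.11, 2.23 and 1.52 in siHKlincR1 libraries 1 to 3. The groups overlapped, since siHKlincR1 library 3 was below siNT libraries 1 and 2. Within numbers 1, 2 and 3 the ratio was 1.25, 1.32 and 1.28 times that of the siNT library. These are ratios of mRNA, and the proteins, which are regulated mainly by destruction, were not measured.

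**Figure D2:**
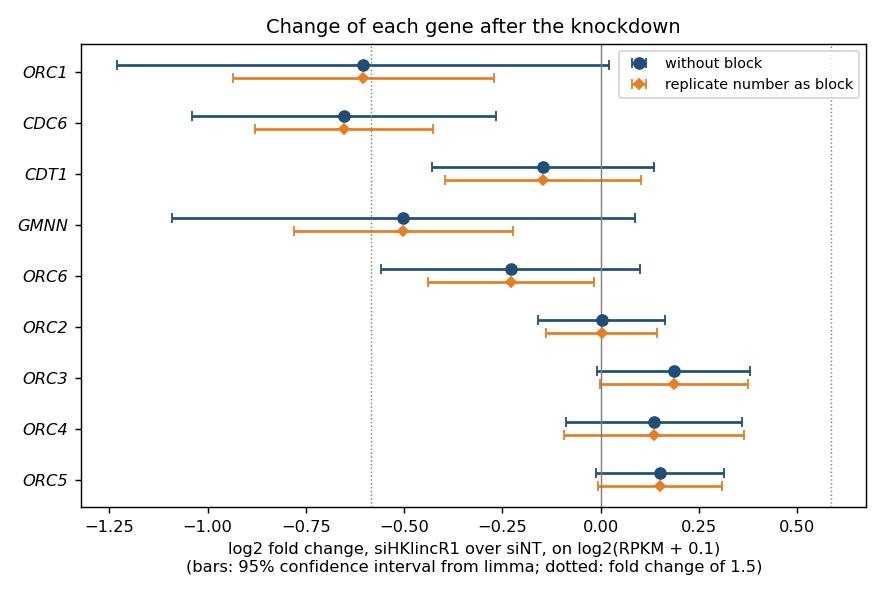
Log2 fold change of each gene, siHKlincR1 over siNT on log2(RPKM + 0.1), with 95% confidence intervals from limma without (circles) and with (diamonds) the replicate number as a block. Dotted lines mark a fold change of 1.5; the interval of CDC6 runs from -1.04 to -0.27 without the block, and those of ORC2 to ORC5 lie at or near 0.

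ORC2 and ORC3 are subunits of the core of the complex. ORC2 lies at chr2:201773700-201828403 on the minus strand (ENSG00000115942) and had the narrowest range of the 9 genes over the 6 libraries on the log2 scale. It was at 10.6, 10.1 and 9.84 RPKM in siNT libraries 1 to 3 and at 10.7, 9.83 and 10.1 RPKM in siHKlincR1 libraries 1 to 3. The groups overlapped entirely, and the log2 fold change was 0.00 (standard error 0.07, interval -0.16 to 0.16, limma, Benjamini-Hochberg adjusted p = 0.986). ORC2 was also the gene with a seed site in its 3′ UTR, shown above. ORC3, at chr6:88299785-88377171 on the plus strand (ENSG00000135336), was at 7.13, 7.59 and 6.93 RPKM in siNT libraries 1 to 3 and at 8.97, 7.94 and 7.80 RPKM in siHKlincR1 libraries 1 to 3.

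Every siHKlincR1 library was above every siNT library for ORC3, with a log2 fold change of 0.19 (standard error 0.08, limma, Benjamini-Hochberg adjusted p = 0.320). ORC5, an ATPase-fold subunit at chr7:103766788-103848495 on the minus strand (ENSG00000164815), was at 10.7, 10.8 and 11.5 RPKM in siNT libraries 1 to 3 and at 11.85, 12.89 and 11.96 RPKM in siHKlincR1 libraries 1 to 3. Its groups were separated as well, with a log2 fold change of 0.15 (standard error 0.07, limma, Benjamini-Hochberg adjusted p = 0.329). Such a separation, with the knockdown above, was found for 10.1% of the tested genes, and the intervals of ORC3 (-0.01 to 0.38) and ORC5 (-0.01 to 0.31) reached 0.

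ORC4, another ATPase subunit, lies at chr2:148687965-148779173 on the minus strand (ENSG00000115947). It was at 2.81, 2.95 and 2.88 RPKM in siNT libraries 1 to 3 and at 3.37, 3.30 and 2.86 RPKM in siHKlincR1 libraries 1 to 3. Its groups overlapped through siHKlincR1 library 3, which lay within the siNT range (log2 fold change 0.14, standard error 0.09, limma, Benjamini-Hochberg adjusted p = 0.490). On the opposite strand its exons overlap those of ACVR2A by up to 431 nt and of MBD5 by up to 157 nt, at mean levels of 0.659 and 0.975 RPKM, and ORC2 overlaps an lncRNA at 0.228 RPKM by 141 nt. Whether the authors' counting used strand is not given in the sources used here, so reads in these stretches are uncertain.

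ORC6 is the smallest subunit and binds the rest of the complex loosely. It lies at chr16:46723555-46732306 on the plus strand (ENSG00000091651). It was at 11.70, 11.95 and 13.55 RPKM in siNT libraries 1 to 3 and at 10.2, 8.87 and 12.9 RPKM in siHKlincR1 libraries 1 to 3. Again siHKlincR1 library 3 was above siNT libraries 1 and 2, so that the groups overlapped. The log2 fold change was -0.23 (standard error 0.14, interval -0.56 to 0.10, limma, Benjamini-Hochberg adjusted p = 0.435), between the median of the regulated genes and that of the constitutive genes.

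The contrast of regulated with constitutive genes was then taken within each library, as the difference between the means of log2(RPKM + 0.1) of the 4 genes on each side. It was 1.17, 1.10 and 1.42 in siNT libraries 1 to 3 and 0.52, 0.27 and 1.11 in siHKlincR1 libraries 1 to 3. The groups overlapped by a narrow margin, since siHKlincR1 library 3 was just above siNT library 2. Within numbers the contrast differed by -0.64, -0.83 and -0.31, on average by -0.60. The constitutive mean alone was higher in each siHKlincR1 library than in any siNT library, by 0.12 on average on the log2 scale.

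Set against ORC2, CDC6 was 2.36, 2.37 and 2.89 times as abundant per length in siNT libraries 1 to 3 and 1.33, 1.46 and 2.11 times in siHKlincR1 libraries 1 to 3, with no overlap. The same quotient for ORC1 was 1.04, 1.08 and 1.48 in siNT libraries 1 to 3 and 0.667, 0.580 and 1.20 in siHKlincR1 libraries 1 to 3, and it overlapped. Both quotients are free of the scaling between libraries. In bulk RNA, fewer cells in the phases in which these genes are expressed and less RNA per cell cannot be told apart.

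**Figure D3:**
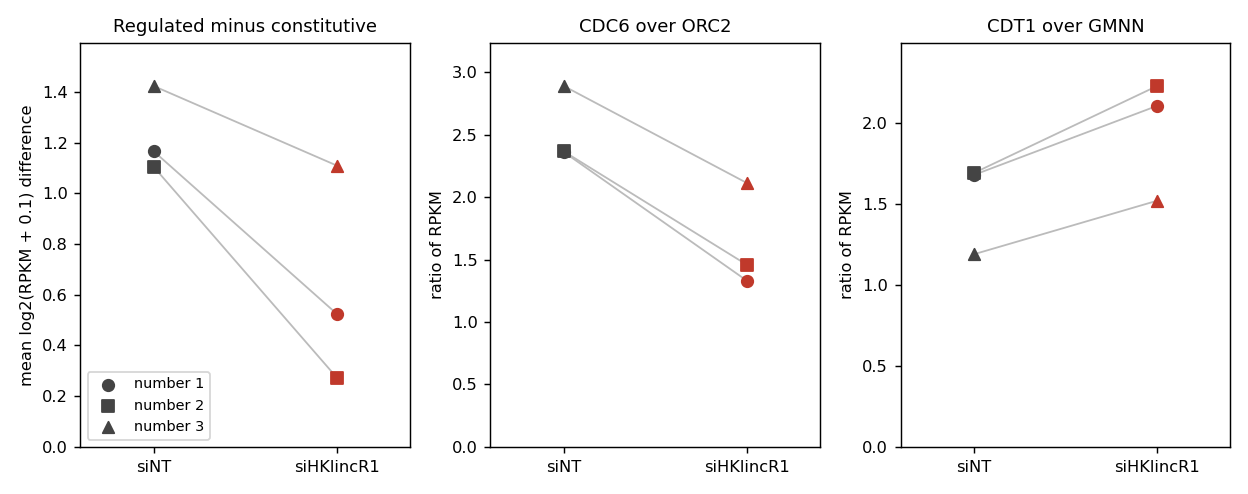
Difference between the mean log2(RPKM + 0.1) of the 4 regulated and the 4 constitutive genes (left), RPKM ratio of CDC6 to ORC2 (middle) and of CDT1 to GMNN (right) in each library, with marker shape for the replicate number and axes from 0. The difference and the CDC6 ratio are lower, and the CDT1 ratio higher, in the siHKlincR1 library of each number, and the number 3 pair has the smallest differences, with a step of -0.31 on the left.

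These values depended on single libraries, and leaving out siHKlincR1 library 2 or 3 moved them in opposite directions. Without siNT library 3 the log2 fold change was -0.47 for ORC1 and -0.34 for GMNN. The median of the regulated genes was then -0.41, against -0.62 and -0.63 without siNT library 1 and 2. Without siHKlincR1 library 2 the log2 fold change was -0.37 for ORC1, -0.26 for GMNN, -0.11 for ORC6 and -0.56 for CDC6, the median of the regulated genes was -0.32, and none of the 9 was called (limma, Benjamini-Hochberg). Without siHKlincR1 library 3 the log2 fold change was -0.85 for CDC6 (limma, Benjamini-Hochberg adjusted p = 0.0173) and -0.91 for ORC1 (adjusted p = 0.0326), and both were called, when 315 of 15475 genes (2.04%) were called lower and 205 higher. GMNN was then at -0.75 (limma, Benjamini-Hochberg adjusted p = 0.0729) and the median of the regulated genes at -0.80. With both libraries numbered 3 left out, an alternative chosen after seeing the data, CDC6 and ORC1 were both at -0.77 and both were called (limma, Benjamini-Hochberg adjusted p = 0.0161 and 0.0361), when 259 of 15505 genes (1.67%) were called lower and 181 higher. The regulated genes were highest of the knockdown libraries in library 3 in 4 of 4 cases, against 39.1% of all tested genes. That library was nearest to siNT in CDC6 and ORC1. Its HKlincR1 level was the lowest, but by few reads (27, against 37 and 42 in siHKlincR1 libraries 1 and 2). What sets library 3 apart was not tested.

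The genes on which licensing acts next were described by lists. All 6 subunits of the MCM2-7 helicase had negative log2 fold changes, with a median of -0.20, and none was called. The largest was that of MCM4, a catalytic subunit, at -0.33 (standard error 0.21, limma, Benjamini-Hochberg adjusted p = 0.460). MCM4 was at 36.3, 36.8 and 43.9 RPKM in siNT libraries 1 to 3 and at 29.2, 23.4 and 43.4 RPKM in siHKlincR1 libraries 1 to 3. For all 6 subunits library 3 was the highest and library 2 the lowest knockdown library, and no subunit had separated groups.

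Of 16 genes for origin firing, which turn the loaded helicase on, 14 were negative and 2 positive, with a median of -0.26 and none called by limma on RPKM. CLSPN (Claspin, an adaptor of the fork and of checkpoint signalling) had the largest value, at -0.63 (standard error 0.23, limma, Benjamini-Hochberg adjusted p = 0.268). It was at 8.07, 8.82 and 9.38 RPKM in siNT libraries 1 to 3 and at 4.80, 4.38 and 8.39 RPKM in siHKlincR1 libraries 1 to 3. The voom fit with the block called CLSPN, at -0.62 (limma, Benjamini-Hochberg adjusted p = 0.0261). The list thus showed the same higher level of library 3 over the other knockdown libraries, in 15 of 16 genes.

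The 14 genes of the ubiquitin ligases that remove CDC6, CDT1 and geminin, with their partners, had a median of -0.09, with 13 negative and none called without the block. CCNF, the cyclin F subunit of a ligase that targets CDC6, was at 7.22, 7.03 and 8.34 RPKM in siNT libraries 1 to 3 and at 4.829, 3.803 and 6.054 RPKM in siHKlincR1 libraries 1 to 3, with no overlap. Its log2 fold change was -0.63 (standard error 0.17, limma, Benjamini-Hochberg adjusted p = 0.182), and it fell in the fit with the block (adjusted p = 0.0471). The positive gene was FBXO31, the F-box subunit of a CDT1 ligase, at 0.23 on the log2 scale (limma, Benjamini-Hochberg adjusted p = 0.295), named after its value was seen.

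All 4 genes of the S phase cyclins and their kinase were negative, with a median of -0.36 and none called by limma on RPKM. CCNE2, the cyclin E2 that drives entry into S phase, had the largest log2 fold change of any of these lists, at -0.90 (standard error 0.28, limma, Benjamini-Hochberg adjusted p = 0.230). It was at 2.13, 2.02 and 2.53 RPKM in siNT libraries 1 to 3 and at 0.879, 0.888 and 1.88 RPKM in siHKlincR1 libraries 1 to 3. CCNE2 was called in the voom fit with the block, at -0.90 (limma, Benjamini-Hochberg adjusted p = 0.0147). As for CDC6, libraries 1 and 2 of the knockdown were nearly equal and library 3 was between them and the siNT libraries.

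Among 13 E2F, DP and pocket protein genes, which set the transcription of the regulated genes, 8 were negative and 5 positive, with a median of -0.16 and none called by limma on RPKM with or without the block. E2F8, a repressive E2F, had the largest value, at -0.63 (standard error 0.14, limma, Benjamini-Hochberg adjusted p = 0.142), with 2.75, 2.75 and 3.14 RPKM in siNT libraries 1 to 3 and 1.901, 1.503 and 2.107 RPKM in siHKlincR1 libraries 1 to 3. In the voom fit with the block E2F8 was called, at -0.65 (Benjamini-Hochberg adjusted p = 0.00841, limma). E2F8, like CDC6, was picked by the study from these libraries, and the paper also reports it lower by qRT-PCR in H460 and other lines. TFDP1, a dimer partner of E2Fs, and E2F1 were the 2 genes of this list with an adjusted p under 0.05 in the block fit. Their log2 fold changes were -0.56 and -0.42 (limma, Benjamini-Hochberg adjusted p = 0.0175 and 0.0444), both under the fold change of 1.5. They were named after their values were seen.

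The helpers of licensing and the relatives of geminin, taken as 1 list, were near 0. Of the 4 tested, 1 was negative and 3 positive, with a median of 0.03, and the largest value was that of LRWD1, a protein bound to ORC on chromatin, at -0.09 (limma, Benjamini-Hochberg adjusted p = 0.698). GMNC, a geminin relative of multiciliated cells, was listed at 0 in all libraries. Of 20 reference genes of G2 and mitosis 18 were negative, with a median of -0.22 and none called, and the largest was KIF11, the mitotic kinesin Eg5, at -0.36 (limma, Benjamini-Hochberg adjusted p = 0.332). In this list library 2 was the lowest knockdown library for 20 of 20 genes, against 37.1% of all tested genes, and library 3 the highest for 19 of 20.

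**Figure D4:**
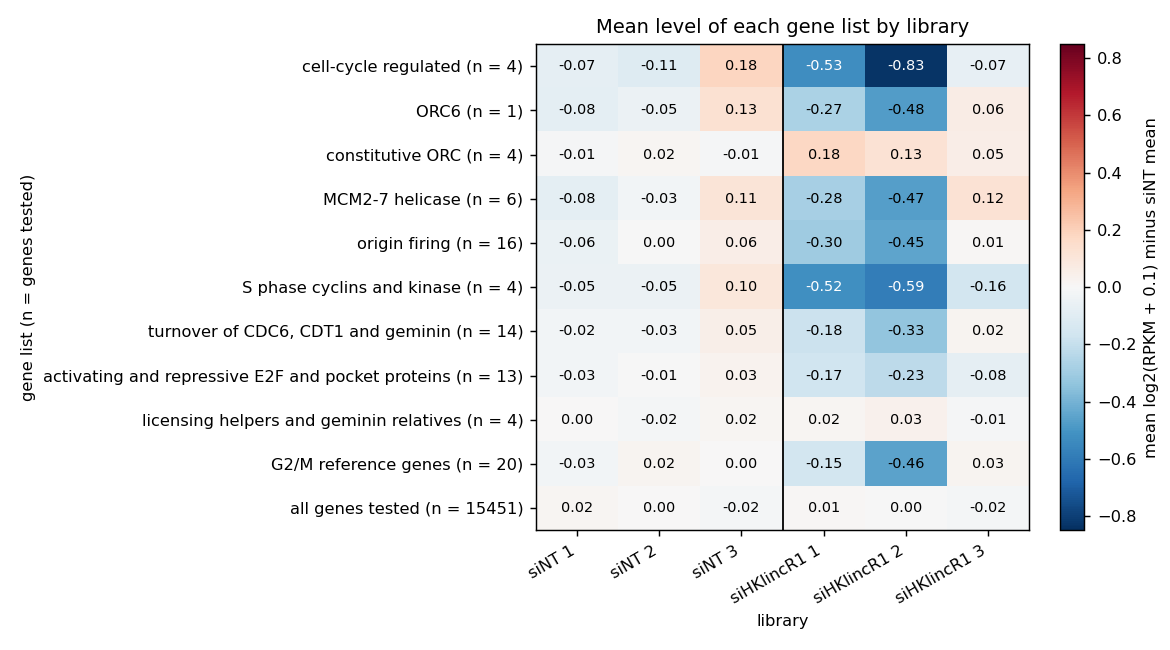
Mean of log2(RPKM + 0.1) minus the siNT mean (colour and printed value) for each gene list and library, n being the genes tested in the list. The regulated genes are at -0.53, -0.83 and -0.07 in siHKlincR1 libraries 1, 2 and 3, the constitutive genes at 0.18, 0.13 and 0.05, and all genes tested within 0.02 of 0 in every library.

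By library, the mean log2 difference from siNT of the regulated genes was -0.53, -0.83 and -0.07 in siHKlincR1 libraries 1 to 3, as the colour map of the lists shows. The constitutive genes had 0.18, 0.13 and 0.05 in the same libraries, so that library 3 was nearest to siNT for them too. The helicase genes had -0.28, -0.47 and 0.12, and the G2 and mitotic genes -0.15, -0.46 and 0.03. Libraries 1 and 2 of the knockdown thus both differed from siNT more in the regulated genes than in the mitotic genes.

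Genes with a course over the 6 libraries most like that of each regulated gene were taken by the mean absolute difference of their log2 deviations, with lower values for a closer course. For CDC6 these were CHST12 (0.024), FZD1 (0.040) and TTYH3 (0.045), and for ORC1 TUBA4A (0.032), CCND3 (0.035) and DNAJA1P3 (0.039). For GMNN they were RAB26 (0.035), DNAJA1 (0.041) and RPS6KA1 (0.051), and for CDT1 SRGAP2C (0.024), FANCE (0.031) and DEPDC1B (0.031). ORC1 and GMNN were close to each other, GMNN being the gene of rank 18 for ORC1 and ORC1 of rank 14 for GMNN among all tested genes. CDC6 was of rank 151 for ORC1 and CDT1 of rank 2402. With 6 libraries these distances rest on few points that share their groups and depth, and are given as a description.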

How the data were processed

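Polyadenylated RNA of H460 cells was sequenced in 6 libraries, 3 with siNT and 3 with siHKlincR1, grouped by their labels. The authors prepared strand-specific paired-end libraries, counted reads on Ensembl gene models with Rsubread (CASAVA 1.8.2 and featureCounts are named in the submitters' processing notes) and deposited RPKM values per gene on GRCh37. The authors' own tests were not used, and the aligner is not given in the sources used here.

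No further scaling was applied to the deposited RPKM. Because they were not rounded, reads and library totals could be worked back, and 100% of 152380 nonzero values came out whole (relative tolerance 1e-09). The 15451 genes whose mean reached 0.5 RPKM were tested on log2(RPKM + 0.1), where the added 0.1 understates fold changes of low genes. The test was limma (3.58.1, under R 4.3.3), whose eBayes step modelled the variance as a trend of the mean. P-values were adjusted over all 15451 genes (Benjamini-Hochberg). Calls needed an adjusted p below 0.05 with a fold change over 1.5. Fits were tested on simulated data. A single value was compared by a two-sided exact permutation test, and intervals are 95% intervals from limma.

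The replicate numbers come from the labels, which do not say what same-numbered libraries share. The deviations of the same-numbered pairs from their group means correlated across genes with r = 0.137 to 0.266, against -0.209 to 0.113 for other pairs, so a fit with the number as a block stands beside results that it changes. The limma p-values set each difference against the spread between these labelled replicates. In a fit with the block, this is the spread left after the replicate number is taken out.

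The 9 genes, the gene lists and the rule for named genes (all 9, the target, the gene of largest change in each list, called genes, and the 3 closest courses for each regulated gene) were chosen with earlier results of these data known. Alternatives changed the pseudocount, filter, scaling, variance model, block, fold threshold and unit (voom on the worked-back reads) and left out libraries. Promoters were those of RefSeq (GRCh38.p14), and 3′ UTRs those of canonical GENCODE v44 transcripts. PECAM1 was not matched.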

Additional observations from a re-analysis of the deposited data

How the results depend on the processing

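No regulated or constitutive gene except ORC2 changed sign under any of 17 alternatives. CDC6 ranged from -0.85 to -0.55 on the log2 scale and was called in 4 of them, ORC1 from -0.91 to -0.37 and called in 3, GMNN from -0.75 to -0.26, CDT1 from -0.23 to -0.01 and ORC6 from -0.37 to -0.11. ORC2 turned to -0.0022 with quantile normalization and -0.014 without both libraries numbered 3 (chosen after seeing the data), and ran from -0.030 to 0.030 when 1 library was left out. Of the 9 genes, 1 was called with the replicate block (CDC6), which changed no other call among them, and 2 (CDC6 and ORC1) with voom and the replicate block and without both libraries numbered 3. Leaving out single libraries gave 0 to 2. The limma adjusted p (Benjamini-Hochberg) of CDC6 lay between 0.00344 and 0.497 over the alternatives and that of ORC1 between 0.0175 and 0.623. Over all genes 56 were called. This became 17 without the mean-variance trend, 204 with the replicate block, 89 with voom on reads, 424 with voom and the block and 440 without both libraries numbered 3. Leaving out 1 library gave 7 to 520, the highest without siHKlincR1 library 3 and the lowest without siNT library 1 or 2. Without a filter 34 were lower and 12 higher. The median of the regulated genes ran from -0.80 to -0.32 and the contrast of medians, -0.70 over all libraries, from -0.98 to -0.43 when 1 library was left out, the first without siHKlincR1 library 3 and the second without siHKlincR1 library 2. The cause of these differences was not tested. With 3 libraries a group, a gene that was not called may still differ by any amount within its interval.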
